A study of Oryctolagus cuniculus with 6 samples.

Results

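miR-21 was followed through 6 small RNA libraries of rabbit ear scar. All rows of the authors' deposited miRNA table named miR-21, whatever the arm, were taken, and these were 2 of 467: ocu-miR-21-5p and ocu-miR-21-3p. Both had a mean of at least 10 CPM (its reads after each library is scaled to the same total) and entered the test. The scars came from full-thickness wounds on the ears of rabbits (female, New Zealand White) and were taken at day 21. The control wounds received saline (3 libraries). The other wounds received ADSC-Exos, the exosomes that adipose-derived stem cells secrete, with a dose of 100 µg in 2 ml (3 libraries). Applications were made during the first 3 days per the design text, but over 21 days per the labels. All animals carried the same wounds, antibiotics and analgesics, and every library comes from a wound. The labels give neither the age of the rabbits nor whether each library is a separate rabbit. The p-values therefore cover only the spread between these samples, part of which may be technical.

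miR-21 is made from a hairpin transcript that is cut by DROSHA and DICER into a pair of arms. The 5p arm is the one loaded in quantity onto Argonaute proteins, and the 3p arm is mostly degraded. In human and mouse cells TGF-β signalling raises mature miR-21 by aiding the cutting of its hairpin, and STAT3 and AP-1 raise its transcription. In human and mouse fibroblasts the 5p arm represses SMAD7 and SPRY1, restraints on TGF-β and ERK signalling, and the translation inhibitor PDCD4, and it is raised in many scarring tissues. In the RefSeq annotation of rabbit assembly mOryCun1.1, the hairpin gene MIR21 (gene ID 114482449) lies between the protein-coding genes VMP1 and TUBD1, and none of the annotated genes spans it.

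The libraries held 2873899 to 3911924 miRNA reads in saline and 2260645 to 5102405 in ADSC-Exos, as read from the steps between low CPM values. miRNAs of fibroblasts (miR-199a and miR-214) summed to 113480 to 164725 CPM in each library, those of keratinocytes to 7928 to 12316 CPM, those of cartilage to 1461 to 7602 CPM and those of skeletal muscle to 609 to 2375 CPM. miRNAs of several cell types were thus present in every library, though the fibroblast sums were mostly miR-199a-3p and the skeletal muscle sums mostly miR-1-3p. On the first principal component of log2(CPM + 1) over the tested miRNAs (45.5% of the variance), ADSC-Exos 2 and 3 stood apart at 5.15 and 9.78, ADSC-Exos 1 was at -6.26 and the saline libraries at -3.67 to -2.03. In such bulk samples, fewer cells of a type and less of an RNA per cell cannot be told apart.

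miR-21-5p was among the most abundant miRNAs of the scar, number 10 by its mean over all libraries. Saline 1, 2 and 3 had 15926.3, 19146.1 and 22678.1 CPM. ADSC-Exos 1, 2 and 3 had 17257, 27893.6 and 46246.2 CPM. ADSC-Exos 2 and 3 lay above every saline library, while ADSC-Exos 1 lay inside the saline range. These are the libraries that the first principal component also sets apart. As a share of all miRNA reads, miR-21-5p took 1.59% to 2.27% in saline and 1.73%, 2.79% and 4.62% in ADSC-Exos 1, 2 and 3. Its rank among the 467 rows was 11 to 13 in saline, 13 in ADSC-Exos 1, 11 in ADSC-Exos 2 and 7 in ADSC-Exos 3.

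**Figure D1:**
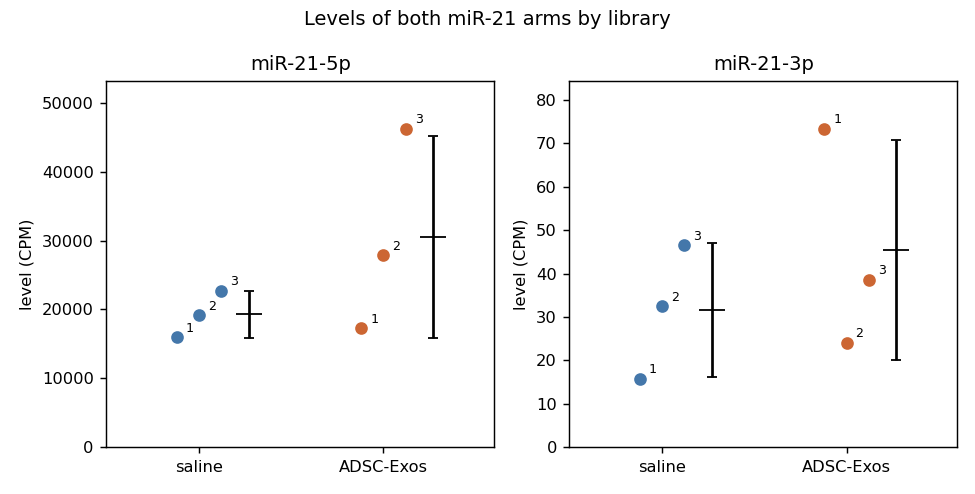
Levels of miR-21-5p (left) and miR-21-3p (right) in CPM, 1 point per library with its replicate number, and beside each group its mean with the SD (n = 3 each). For miR-21-5p ADSC-Exos 3 is highest, at 46246.2 CPM, whereas for miR-21-3p ADSC-Exos 1 is highest, at 73.4 CPM, and the groups overlap in both.

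The saline mean was 19250.2 ± 3377 CPM and the ADSC-Exos mean 30466 ± 14665 CPM (± SD, 3 libraries each), a ratio of 1.58. The log2 fold change of 0.56 ± 0.36 (SE) had a 95% interval from -0.25 to 1.37 and did not pass the test (adjusted p = 0.996, limma). Of the 224 miRNAs tested, 0 passed an adjusted p of 0.05 (0%, with 8 at an unadjusted p under 0.05, as with limma-voom). The groups overlapped for miR-21-5p, as they did for all but 11 of 224 miRNAs (4.91%). The exact permutation p, two-sided over 20 arrangements, was 0.3 where the design allows no value below 0.1. Over all libraries, 8 of the 224 had a higher fold change than miR-21-5p, and the median over all of them was -0.08. The value rested on single ADSC-Exos libraries: it was 0.91 without ADSC-Exos 1 (adjusted p = 0.218, unadjusted p = 0.0105, limma) and 0.20 without ADSC-Exos 3 (adjusted p = 0.995, limma).

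The ADSC-Exos libraries spread over a wider range of miR-21-5p than the saline ones. The highest library exceeded the lowest 1.42-fold in saline and 2.68-fold in ADSC-Exos. Among the 20 most abundant miRNAs this fold between libraries was number 4 in ADSC-Exos, where miR-125b-5p had 6.26, miR-143-3p 4.79 and miR-191-5p 3.25, and number 10 in saline. The difference in spread was not tested. Counting error was small beside it: 39012 to 235967 reads lay behind each value, and the 51708 reads of saline 1 gave an interval of 15789 to 16064 CPM.

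By mean level over the 6 libraries, miR-21-5p (24858 CPM) stood between let-7b-5p (44462 CPM) and miR-148a-3p (24776 CPM). Above it came miR-16b-5p, a repressor of cell cycle genes, miR-143-3p, a smooth muscle miRNA, and let-7b-5p, a member of the growth-restraining let-7 family. miR-21-5p exceeded each of these in 1 of 6 libraries, namely miR-16b-5p and let-7b-5p in ADSC-Exos 3 and miR-143-3p in ADSC-Exos 1. Below it came miR-148a-3p, let-7c-5p and miR-26a-5p, a miRNA that represses EZH2. miR-21-5p exceeded miR-148a-3p in 3 of 6 libraries, 1 saline and 2 ADSC-Exos, and let-7c-5p likewise in 3 of 6. It exceeded miR-26a-5p in 5 of 6. The order of miR-21-5p, miR-148a-3p and let-7c-5p was therefore not settled by these libraries, whose SDs over all 6 were 5044 CPM for miR-148a-3p and 3550 CPM for let-7c-5p.

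The passenger arm miR-21-3p was far scarcer. Saline 1, 2 and 3 had 15.7, 32.4 and 46.5 CPM. ADSC-Exos 1, 2 and 3 had 73.4, 24 and 38.6 CPM. Its highest value fell in ADSC-Exos 1, the library with the lowest miR-21-5p of its group, and the groups overlapped. The reads behind them were 51, 93 and 182 for saline and 166, 89 and 197 for ADSC-Exos. The counting interval of ADSC-Exos 1 (62.7 to 85.5 CPM) lay above those of all other libraries. That of saline 1 (11.7 to 20.7 CPM) lay below all others except that of ADSC-Exos 2 (19.3 to 29.6 CPM), which it met. The saline mean was 31.5 ± 15.4 CPM and the ADSC-Exos mean 45.3 ± 25.4 CPM (± SD, 3 libraries each). The log2 fold change of 0.49 ± 0.52 (SE, interval -0.69 to 1.67) did not pass the test (adjusted p = 0.996, limma; exact permutation p = 0.5). Without saline 1 or without ADSC-Exos 1 the fold change fell to 0.074 and 0.078, with adjusted p = 0.996 and 0.978 (limma).

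miR-21-3p was 0.0985%, 0.169% and 0.205% of the reads of both arms in saline 1, 2 and 3, and 0.424%, 0.0860% and 0.0834% in ADSC-Exos 1, 2 and 3. The ratio of 5p to 3p was 1014, 591 and 488 in saline and 235, 1162 and 1198 in ADSC-Exos. ADSC-Exos 1 was lowest and ADSC-Exos 2 and 3 were highest of all, so the treated libraries enclosed the saline ones. The log2 ratio differed by 0.07 between the groups, ADSC-Exos minus saline (exact permutation p = 1), and by 0.84 without ADSC-Exos 1 (exact permutation p = 0.2, smallest possible 0.1). Leaving out saline 2, saline 3, ADSC-Exos 2 or ADSC-Exos 3 turned its sign.

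Among the 57 hairpins with both arms tested, miR-21 was number 6 in how unequal its arms were, with a mean log2 ratio of 9.36. Its ratio was also among the least steady: the highest and lowest libraries were 2.33 log2 units apart, number 6 of 57 after miR-125b (4.78), miR-194 (4.40), miR-139 (3.20), miR-214 (2.63) and miR-708 (2.39). By the difference between the groups it was number 52 of 57. The 3p values of miR-21 rest on 51 to 197 reads per library, and the part of counting error in this spread was not tested.

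**Figure D2:**
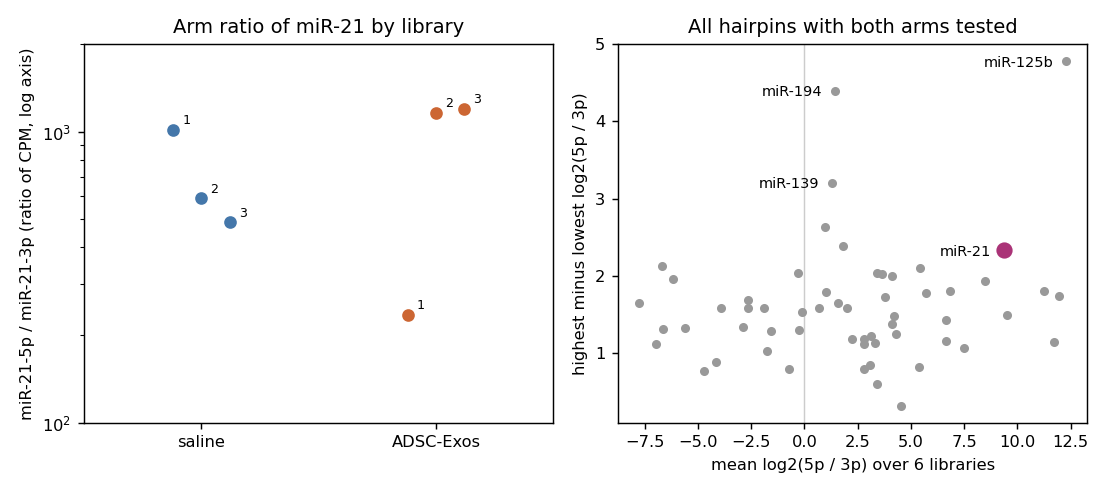
Left, the ratio of miR-21-5p to miR-21-3p in each library on a log axis, with replicate numbers. Right, for the 57 hairpins with both arms tested, the mean log2 ratio of 5p to 3p over the 6 libraries against the gap between the highest and lowest library, with miR-21 in purple at 9.36 and 2.33.

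Ratios within a library hardly depend on how libraries were scaled, and miR-21-5p was set against 6 miRNAs of known roles in this way. Against miR-29a-3p, which represses collagen transcripts, the log2 ratio was 0.48, 0.60 and 0.68 in saline and 0.50, -0.03 and 1.35 in ADSC-Exos. The saline libraries were close together, with ADSC-Exos 2 below and ADSC-Exos 3 above them. The means were 0.59 ± 0.10 and 0.60 ± 0.70 (SD, n = 3 each), a difference of 0.02 (exact permutation p = 0.9, adjusted p = 0.9). The sign of this difference turned without saline 1 and without ADSC-Exos 3. miR-29a-3p itself had a log2 fold change of 0.55 ± 0.33 (SE, adjusted p = 0.996, limma). It was 0.85 without ADSC-Exos 1, and without ADSC-Exos 2 it was 0.23, where miR-21-5p had 0.57. miR-29a-3p was highest in ADSC-Exos 2, at 28550 CPM, whereas miR-21-5p was highest in ADSC-Exos 3.

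Against miR-143-3p, a smooth muscle miRNA, the log2 ratio was -2.11, -0.95 and -0.83 in saline and 0.35, -0.76 and -0.49 in ADSC-Exos. All ADSC-Exos libraries lay above all saline libraries, as they did for 14 of the 223 ratios of miR-21-5p to another tested miRNA (6.28%). The difference was 0.99 (exact permutation p = 0.1, the smallest possible, adjusted p = 0.6 over the 6 ratios). It was 0.59 without saline 1, where miR-143-3p stood at 68829.7 CPM, and 0.67 without ADSC-Exos 1, where it stood at 13577.1 CPM.

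Against miR-199a-3p, the most abundant miRNA of these scars and one rich in fibroblasts, the log2 ratio averaged -2.56 ± 0.32 in saline and -1.98 ± 0.45 in ADSC-Exos (SD, n = 3 each). ADSC-Exos 2 and 3, at -1.77 and -1.68, were above all saline libraries, and ADSC-Exos 1, at -2.50, was among them (difference 0.58, exact permutation p = 0.3, adjusted p = 0.6). Against let-7a-5p the difference was 0.57 (exact permutation p = 0.4, adjusted p = 0.6). It was 0.33 and 0.89 without saline 1 and saline 3, and 0.93 and 0.21 without ADSC-Exos 1 and ADSC-Exos 3.

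Against the keratinocyte miRNA miR-205-5p the log2 ratio averaged 2.50 ± 0.81 in saline and 3.57 ± 1.66 in ADSC-Exos (SD, n = 3 each, exact permutation p = 0.5, adjusted p = 0.6). ADSC-Exos 3 was highest, at 5.41, and without it the difference of 1.07 became 0.15. It was 0.66 without saline 1 and 1.76 without ADSC-Exos 1. Against miR-142-5p, a miRNA of blood-derived cells, the log2 ratio averaged 5.78 ± 0.67 in saline and 6.78 ± 1.49 in ADSC-Exos (SD, n = 3 each, exact permutation p = 0.3, adjusted p = 0.6). The difference of 1.01 became 0.66 without saline 3, 1.82 without ADSC-Exos 1 and 0.37 without ADSC-Exos 3. None of the 6 ratios passed, and the exact test of 3 libraries against 3 cannot reach the threshold. Of the 223 ratios of miR-21-5p to another tested miRNA, 215 had the higher mean in ADSC-Exos. The shared direction of the 6 is thus not particular to these references.

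**Figure D3:**
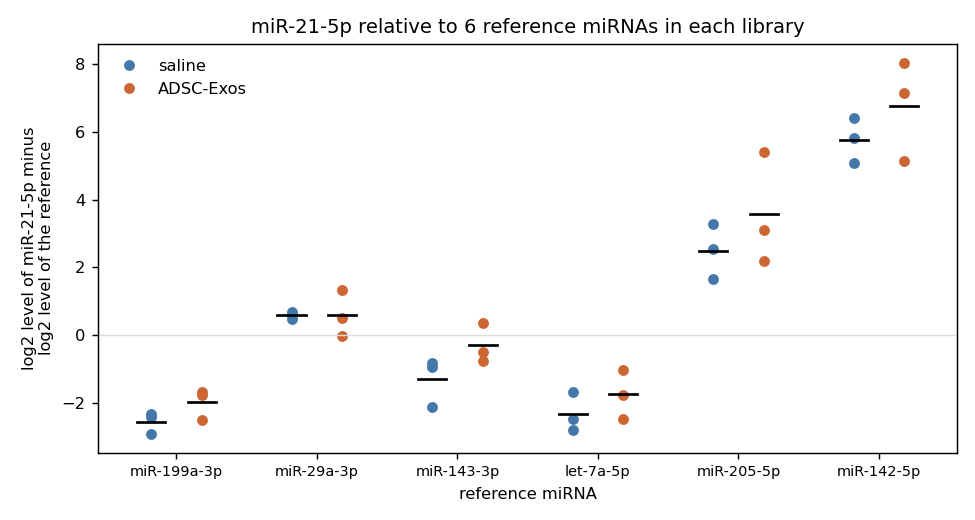
Log2(CPM + 1) of miR-21-5p minus that of each of 6 reference miRNAs, 1 point per library (saline blue, ADSC-Exos orange) and a bar at the mean of each group. The groups are apart for miR-143-3p and overlap for the other references.

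Cell-type miRNAs also varied from library to library. In ADSC-Exos 3, with the highest miR-21-5p, the 4 fibroblast rows summed to 164725 CPM, the highest of all libraries (117972 to 143972 CPM in saline). Most of that sum was miR-199a-3p, at 148229.9 CPM. miR-199a-5p, at 16382.1 CPM, lay inside its saline range of 9865.4 to 30001.3 CPM. The 7 keratinocyte rows summed in ADSC-Exos 3 to 7928 CPM, the lowest (8147 to 11341 CPM in saline), and the 13 leukocyte rows to 7644 CPM (8108 to 10248 CPM in saline). Members differed: miR-205-5p, at 1083 CPM, was below saline (2331.1 to 5017.1 CPM) and miR-141-3p, at 5111.1 CPM, above it (4006.8 to 4136.5 CPM). Of the leukocyte rows, miR-155-5p was at its highest of all libraries there, at 3704.1 CPM. The leukocyte sum was lower still in ADSC-Exos 2, at 6808.5 CPM. In ADSC-Exos 1, with the lowest miR-21-5p of its group, the 4 smooth muscle rows summed to 14505 CPM (38229 to 70397 CPM in saline) and the 4 cartilage rows to 1461 CPM (2110 to 4652 CPM in saline). Each of these was the lowest of the 6 libraries. The 5 erythroid rows summed to 443 to 853 CPM in saline and to 472, 154 and 109 CPM in ADSC-Exos 1, 2 and 3. The 5 skeletal muscle rows summed to 1453 to 2134 CPM in saline and to 609 to 2375 CPM in ADSC-Exos. None of the listed rows was at 0 in every library, but some listed miRNAs had no row. These were miR-203, miR-203a, miR-200a, miR-200b and miR-429 for keratinocytes and miR-199b for fibroblasts. For erythroid cells the listed name miR-451a had no row, but miR-451-5p had a row. How far the differences in these sums bear on the level of miR-21-5p was not tested.

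The miRNAs whose pattern over the 6 libraries was nearest to miR-21-5p were found by the root mean square distance between log2(CPM + 1) profiles, each centred on its own mean. They were miR-214-5p (distance 0.18 log2 units), miR-350-3p (0.22), miR-30b-5p (0.23), miR-455-3p (0.27) and miR-194-5p (0.30). The median over 222 tested miRNAs was 0.70, and a profile with no change over the libraries would lie at 0.52. miR-214-5p, an arm of a fibroblast miRNA, had 29, 29.2 and 34.5 CPM in saline, then 21.7, 35.9 and 76.4 CPM in ADSC-Exos 1, 2 and 3. Like miR-21-5p it was highest in ADSC-Exos 3, and in ADSC-Exos 1 it was below the saline range. Its partner arm miR-214-3p differed, with 42.2, 15.7 and 14.3 CPM in saline, then 9.7, 7.6 and 36.6 CPM in ADSC-Exos 1, 2 and 3. miR-30b-5p, of a family that represses CTGF, had 455.2, 449.2 and 588.5 CPM in saline, then 508.3, 661.8 and 833.9 CPM in ADSC-Exos 1, 2 and 3. miR-194-5p, from the hairpin that the study's title names, reached 47.8 and 44.9 CPM in ADSC-Exos 2 and 3 against 20.8 CPM in ADSC-Exos 1.

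miR-455-3p, a cartilage miRNA, ran from 13.6 to 25.8 CPM over the saline libraries and had 11.1, 31.9 and 36.3 CPM in ADSC-Exos 1, 2 and 3. The partner arm miR-21-3p lay at a distance of 0.82, and 144 of the 222 were nearer to miR-21-5p. The membership of the nearest 5 depended on single libraries: 1 of 5 was kept without saline 1 and 1 of 5 without ADSC-Exos 3, and 3 of 5 under quantile scaling. These 5 share libraries and depth with miR-21-5p, and the distances are a description with no test.

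**Figure D4:**
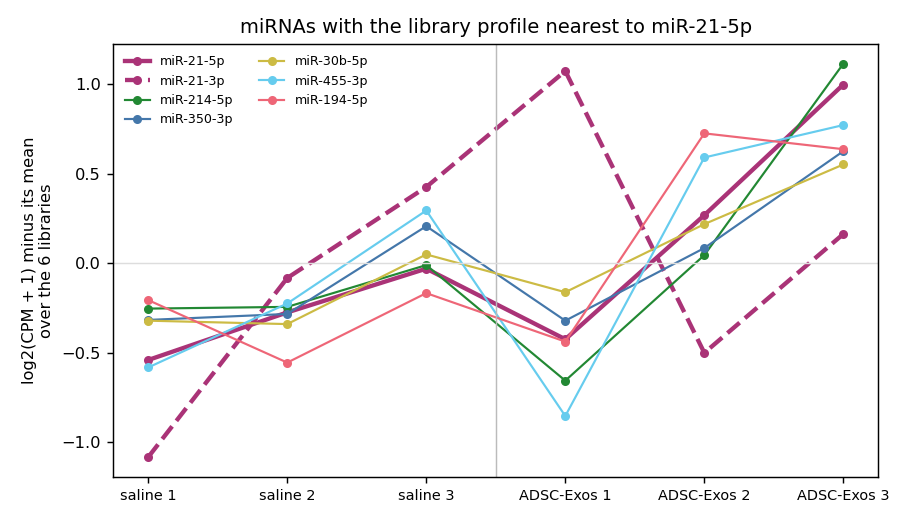
Log2(CPM + 1) of both miR-21 arms and of the 5 miRNAs nearest to miR-21-5p, each minus its mean over the 6 libraries, by library. The solid lines are lower in ADSC-Exos 1 than in ADSC-Exos 2 and 3, and miR-21-3p, dashed, is highest in ADSC-Exos 1.

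The fold change of miR-21-5p can be set beside those of other miRNAs with reported roles in fibrosis. Of 20 miRNAs listed as promoting fibrosis, miR-199b, miR-192, miR-132, miR-27a and miR-23a had no row. The others gave 29 rows, and 18 were tested, of which 9 were higher, 9 lower and 0 passed in either direction. Their median log2 fold change was 0.02, against -0.08 over all 224 (88 higher, 136 lower). It was -0.01 without both miR-21 rows, and it turned to -0.065 with no level filter and to -0.03, -0.01 and -0.08 without saline 1, saline 2 and ADSC-Exos 3. miR-424-5p, a hypoxia-linked miRNA of the miR-15/16 seed family, had 0.55 ± 0.51, and miR-199a-5p, which represses caveolin-1, had 0.22 ± 0.39 (SE). miR-155-5p, an immune miRNA, had 0.21 ± 0.41, miR-199a-3p -0.01 ± 0.24 and miR-145-5p, which favours contractile cells, -0.11 ± 0.38 (SE). The lowest of the tested rows was miR-214-3p, at -0.56 ± 0.64 (SE). The sign of miR-199a-3p turned under both other scalings.

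Of 27 miRNAs listed as restraining fibrosis, miR-200a, miR-200b and miR-429 had no row. The others gave 49 rows, and 33 were tested, of which 21 were higher, 12 lower and 0 passed. Their median log2 fold change was 0.07, and -0.02 without ADSC-Exos 2. miR-29b-3p, a sister of miR-29a, had 0.82 ± 0.34 and miR-26a-5p 0.12 ± 0.32 (SE), both with an adjusted p of 0.996 in limma. The lowest of the list was miR-486-5p, also on the erythroid list, at -1.39 ± 0.51 (SE, adjusted p = 0.861, limma). Next came miR-18a-5p at -0.84 ± 0.77 and miR-133a-3p at -0.70 ± 0.65 (SE). The sign of miR-26a-5p turned without saline 3, ADSC-Exos 2 or ADSC-Exos 3.

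Of 11 miRNAs listed as induced in wounds and inflammation, miR-21 included, miR-132 had no row. From the others 15 rows were tested, of which 7 were higher, 8 lower and 0 passed. Both miR-21 arms were among the 7, and the other 13 rows (5 higher, 8 lower) had a median of -0.065. The median of all 15 was -0.0048, 0.06 and 0.12 under median-of-ratios and quantile scaling, and -0.26 for rows averaging 100 CPM or more. It ran from -0.10 without saline 3 to 0.024 without ADSC-Exos 2. miR-146a-5p, a brake on NF-κB signalling, had -0.26 ± 0.38, miR-223-3p, a myeloid miRNA, -0.55 ± 0.46, and miR-31-5p, a wound keratinocyte miRNA, -0.40 ± 0.75 (SE). The fold change of miR-146a-5p ran from -0.59 without saline 1 to -0.09 without saline 3. miR-146a-5p was at 2642.1 CPM in saline 1, at 2793.4 and 2832 CPM in ADSC-Exos 2 and 3, and at 5196.4 to 5315.7 CPM in the other 3 libraries. Its high libraries thus included ADSC-Exos 1, where miR-21-5p was lowest in its group. In saline the 2 miRNAs went together: saline 1 was lowest in both, with miR-21-5p at 15926.3 CPM. Of the 9 leukocyte rows tested, 3 were higher and 6 lower (median -0.26), with miR-150-5p, a lymphocyte miRNA, at -0.86 ± 0.44 (SE). That median was -0.59 without saline 1 and -0.57 without ADSC-Exos 1, and it lay between -0.11 and -0.10 without any one of the other 4 libraries.

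Of the 7 keratinocyte rows, 5 were higher and 2 lower (median 0.40). miR-141-3p, of the epithelial miR-200 family, had 0.51 ± 0.25 (SE). Its groups did not overlap, as for 11 of the 224 tested miRNAs (4.91%), miR-206-3p and miR-451-5p included. miR-205-5p, the other most abundant keratinocyte row, had -0.51 ± 0.50 (SE). The keratinocyte median was 0.073 without ADSC-Exos 1 and 0.19 for rows averaging 100 CPM or more. Of the 4 fibroblast rows 2 were higher and 2 lower (median 0.10, and -0.18 without ADSC-Exos 3), and all 4 smooth muscle rows were lower (median -0.27, and 0.15 without ADSC-Exos 1). All 4 cartilage rows were higher, with miR-140-3p at 0.23 ± 0.62 and miR-140-5p at 0.26 ± 0.61 (SE), and the list median of 0.25 became -0.17, -0.06 and -0.06 without ADSC-Exos 2, ADSC-Exos 3 and saline 1. The 3 skeletal muscle rows tested, with a median of -0.70, and the 4 erythroid rows tested, with a median of -1.49, were all lower. Of all 224 tested miRNAs, 88 were higher and 136 lower. Arms of the same hairpin are not independent members. The smooth muscle rows are both arms of miR-143 and miR-145, the cartilage rows both arms of miR-140 and miR-455, and the erythroid rows include both arms of miR-144. Without ADSC-Exos 1 the skeletal muscle median was 0.080 and the erythroid median -2.12. miR-206-3p had -4.24 ± 1.10, miR-1-3p -0.33 ± 0.48, miR-451-5p -1.71 ± 0.50 and miR-144-3p -1.59 ± 0.64 (SE). miR-206-3p, a muscle miRNA, had 131.5, 145.8 and 4.6 CPM in saline and 1.2 to 1.8 CPM in ADSC-Exos. Without saline 3 its fold change was -5.79, which passed (adjusted p = 0.000445, limma), and with a pseudocount of 10 CPM it was -2.57. Without ADSC-Exos 1, miR-451-5p passed at -2.29 (adjusted p = 0.00659, limma) and miR-144-3p at -2.33 (adjusted p = 0.0218, limma). No row of any list passed the adjusted test in limma over all libraries.

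**Figure D5:**
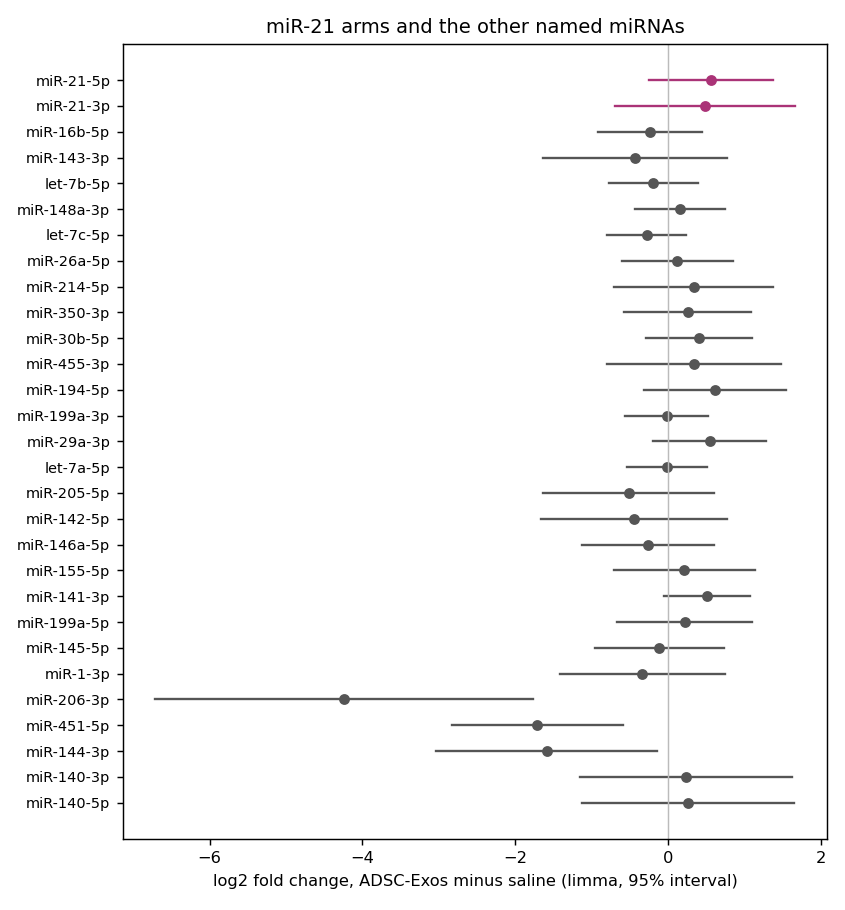
Log2 fold change of ADSC-Exos against saline with its 95% interval from limma (3 libraries each) for both miR-21 arms (purple) and the other named miRNAs. The intervals of both arms include 0, and those of miR-206-3p, miR-451-5p and miR-144-3p do not, although none passed after adjustment over 224 miRNAs.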

How the data were processed

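The authors deposited one table of CPM values (reads after each library is scaled to the same total) for 467 mature miRNAs, given almost throughout to 1 decimal. Per the submitters' processing notes, the tools included the aligner STAR 2.7.6a, the read counter HTSeq 2.0.3, Trimmomatic 0.40, FastQC 1.0.0 and DESeq2 1.30.1, named without their roles. The sources used here name no genome build and no miRNA annotation. CPM is relative: a rise of an abundant miRNA lowers the values of all others. Adaptor ligation favours some sequences, so levels of different miRNAs compare less securely than levels of one miRNA between libraries.

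Read totals per library were found as the whole number for which most of the listed CPM values, within 0.05 CPM, were multiples of 1 read (388 of 390 in saline 2, and all but at most 1 in each other library). In ADSC-Exos 3 another total served as well. The totals were 2260645 to 5102405, and 1 read was worth 0.196 to 0.442 CPM. Intervals from these reads are exact Poisson intervals at 95% and cover counting error only.

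The main test was limma 3.58.1 (R 4.3.3) with a mean trend on log2(CPM + 1), group as the only term, over the 224 miRNAs that averaged 10 CPM or more, two-sided, with Benjamini-Hochberg adjustment over all of them. It was tested on simulated data. The added 1 CPM shrinks the fold changes of scarce miRNAs. Single values and within-library ratios were compared with exact two-sided permutation tests over 20 arrangements. The alternatives were 2 other scalings, pseudocounts of 0.1 and 10, testing all miRNAs or those averaging 100 CPM or more, the replicate number as a block, limma-voom on the reads above, and each library left out.

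The members, lists and named miRNAs were chosen with earlier results of these data known. Named were both arms, the 3 miRNAs next above and the 3 next below miR-21-5p in mean level, the 5 tested miRNAs with the nearest library profile, 6 reference miRNAs and the 2 most abundant rows of each list. The parts of this rule that need mature sequences were not used here. miR-29b-3p, miR-424-5p, miR-223-3p, miR-31-5p, miR-150-5p, miR-125b-5p, miR-191-5p, miR-194-3p, miR-486-5p and the hairpins of miR-125b, miR-194, miR-139, miR-214 and miR-708 were named after their values were seen. So were miR-18a-5p, miR-133a-3p and miR-214-3p.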

Additional observations from a re-analysis of the deposited data

How the results depend on the processing

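miR-21-5p kept its direction under all 14 alternatives (log2 fold change 0.20 to 0.91, adjusted p 0.218 to 0.998), and so did miR-21-3p under its 13 (0.074 to 0.86, adjusted p 0.927 to 0.998), and neither passed under any. Not all of these could turn a direction. The level filters and the replicate block leave the fold change of a row as it was and can alter only its p-values. Both pseudocounts are small beside the level of miR-21-5p, which stayed at 0.56 under them. The replicate block gave 0.56 for miR-21-5p (adjusted p = 0.996, limma). Same-numbered libraries did not deviate together (correlations of -0.11, -0.02 and -0.13 for numbers 1, 2 and 3). For unlike numbers the correlations ran from -0.24 to 0.24. With 3 libraries per group, such correlations cannot settle whether the numbers pair samples. The block changed no call. The count of miRNAs that passed ran from 0 to 4 over the leave-outs, with 4 without ADSC-Exos 1 (miR-144-3p, miR-194-3p, miR-451-5p and miR-486-5p) and 1 without saline 3 (miR-206-3p). Planned count models other than limma-voom were not run. miR-21-3p, with 51 to 197 reads per library, limits the arm ratio, whose group difference ran from -0.33 to 0.84 when a library was left out. The same range was -0.35 to 0.34 for the ratio to miR-29a-3p. The cause of these changes was not tested.

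Among the other named miRNAs, none of which passed over all libraries, these changed sign when a library was left out, with log2 fold changes running from -0.88 to 0.25 for miR-143-3p, -0.32 to 0.0070 for let-7b-5p, -0.058 to 0.28 for miR-148a-3p, -0.046 to 0.43 for miR-26a-5p, -0.14 to 0.75 for miR-214-5p, -0.22 to 0.098 for miR-199a-3p, -0.20 to 0.10 for let-7a-5p, -0.85 to 0.053 for miR-205-5p, -0.91 to 0.028 for miR-142-5p, -0.11 to 0.54 for miR-155-5p, -0.15 to 0.66 for miR-199a-5p, -0.31 to 0.25 for miR-145-5p, -0.76 to 0.22 for miR-1-3p, -0.31 to 0.98 for miR-140-3p and -0.16 to 0.99 for miR-140-5p. Under median-of-ratios and quantile scaling, miR-199a-3p turned to 0.049 and 0.0055 and let-7a-5p to 0.056 and 0.14. Scaling moved the median of all tested miRNAs from -0.08 to -0.02 (median-of-ratios) and 0.0033 (quantile).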
